A study of Mus musculus with 6 samples.

Results

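The adult globin genes Hba-a1, Hba-a2, Hbb-bs and Hbb-bt and the heme synthesis gene Alas2 are described here in CD45-negative cells sorted from mouse tumours. These 5 genes, of 57186 in the deposited count table, were chosen by symbol because their transcripts were already known to be far lower in one group, so their difference between the groups is a description and is not tested. The Y-KO group held 3 libraries from tumours of MB49 cells edited with CRISPR to lose the Y chromosome, and the Y-Scr group 3 libraries from tumours of MB49 cells given a scrambled CRISPR control. MB49 cells are a line from a bladder carcinoma of a male mouse. Both groups were grown as subcutaneous tumours in C57Bl/6J mice up to a volume of 500 mm3, and cells without the leukocyte antigen CD45 were sorted before RNA extraction and poly-A library preparation. The labels give neither the age or sex of the mice nor whether an edited line was 1 clone or a replicate 1 tumour, so the p-values reflect the variation of these libraries alone, possibly technical. Other genes of the red cell lineage did not all follow the globins: Rhag and Kel had 0 counts in all 6 libraries and Slc4a1 at most 10 in any, whereas Gata1 (6 counts over Y-KO, 153 over Y-Scr) and Hemgn (28 over Y-KO, 633 over Y-Scr) were lower in Y-KO. The genes are therefore called here by their names.

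Adult hemoglobin is a tetramer of alpha chains, encoded by Hba-a1 and Hba-a2, and beta chains, encoded by Hbb-bs and Hbb-bt, each of which holds a heme group. Alas2 encodes the erythroid form of 5-aminolevulinate synthase, the mitochondrial enzyme of the first and rate-limiting step of heme synthesis, while most other tissues use the form encoded by Alas1. Erythroblasts and the reticulocytes they give rise to carry these transcripts at high levels. GATA1, KLF1 and TAL1 are transcription factors that drive the globin genes and Alas2 in red cell precursors.

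The sequences just upstream of the 5 genes are shown because their transcripts are all lower in Y-KO than in Y-Scr, the difference for which the genes were chosen. Each window holds the 250 bases before the RefSeq gene start (build GRCm38.p6), 5′ to 3′ on the gene's own strand. Capitals mark matches, on either strand, to GATAA (the core of a GATA factor site), CACCC (the CACC box read by KLF1), CCAAT and TATAA (the TATA box).
Hba-a1, chr11:32283422-32283671, plus strand: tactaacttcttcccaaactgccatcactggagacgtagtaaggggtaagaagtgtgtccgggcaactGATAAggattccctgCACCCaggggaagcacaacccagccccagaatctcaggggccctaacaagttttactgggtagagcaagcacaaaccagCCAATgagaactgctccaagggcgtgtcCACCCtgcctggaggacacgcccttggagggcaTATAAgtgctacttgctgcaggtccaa
Hbb-bs, chr7:103827929-103828178, minus strand: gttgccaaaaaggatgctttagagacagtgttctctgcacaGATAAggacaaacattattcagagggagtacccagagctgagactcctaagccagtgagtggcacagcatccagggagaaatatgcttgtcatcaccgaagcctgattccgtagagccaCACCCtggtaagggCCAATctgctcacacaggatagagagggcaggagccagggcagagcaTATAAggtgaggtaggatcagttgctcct
Hbb-bt, chr7:103813924-103814173, minus strand: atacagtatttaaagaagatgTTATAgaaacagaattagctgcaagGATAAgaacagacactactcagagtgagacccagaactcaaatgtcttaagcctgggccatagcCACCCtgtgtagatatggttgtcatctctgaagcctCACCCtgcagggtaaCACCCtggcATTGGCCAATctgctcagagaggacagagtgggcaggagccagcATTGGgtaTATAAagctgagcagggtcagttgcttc
Alas2, chrX:150547167-150547416, plus strand: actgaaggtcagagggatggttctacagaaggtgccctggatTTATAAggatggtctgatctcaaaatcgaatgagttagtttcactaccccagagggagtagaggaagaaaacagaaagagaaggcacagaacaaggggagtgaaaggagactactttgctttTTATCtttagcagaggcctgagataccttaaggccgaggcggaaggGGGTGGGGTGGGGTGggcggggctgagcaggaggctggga

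All 5 windows held 1 GATAA match each, at 182 bases before the start in Hba-a1, 209 in Hbb-bs, 204 in Hbb-bt and, on the minus strand of the gene, 86 in Alas2. GATAA occurs in 22.6% of the 32851 RefSeq windows of the same length, CACCC in 52.0%, CCAAT in 33.8% and TATAA in 22.8%. The 4 globin windows held all 4 motifs, as do 0.968% of windows, and the Alas2 window held no CCAAT. The single overlap between matches was in Alas2, where TATAA on both strands formed 1 stretch far upstream of the start. The TATAA match nearest the start began 27 bases before it in Hba-a1, 29 in Hbb-bs and 28 in Hbb-bt. The Hba-a2 window (chr11:32296242-32296491, plus strand) is not printed, since its sequence equals that of Hba-a1 at 297 of 297 bases once shifted by 3 bases. A match is a run of letters and not a measured binding site.

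The likeness of the copies also bears on their counts, since the counting command in the file header sets no option to keep reads that fit several places. Of all 50-base windows of the Hba-a2 mRNA, 86.9% also occur in Hba-a1, and 67.5% of those of Hba-a1 occur in Hba-a2. For Hbb-bs the share found in Hbb-bt was 65.8%, and for Hbb-bt the share found in Hbb-bs was 58.3%. With 100-base windows the shares were 74.5% for Hba-a2, 56.5% for Hba-a1, 62.6% for Hbb-bs and 54.8% for Hbb-bt. No 50-base window of Alas2 was found in another gene's transcripts. The counts of the globin genes therefore rest on the parts in which the copies differ, and their levels relative to each other are uncertain. In the deposited annotation (GRCm39) Hba-a1 lies at chr11:32233511-32234465 and Hba-a2 at chr11:32246489-32247298, both on the plus strand, with Hbb-bt at chr7:103461731-103463203 and Hbb-bs at chr7:103475741-103477303, both on the minus strand. The exons of these 4 genes overlap those of no other gene. Alas2, at chrX:149330371-149353634 on the plus strand, shares exonic bases with Apex2 and Mir3620, and reads that fell on both genes were not counted.

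The libraries held 42040955 to 52951031 counts each. Kdm5d, a Y-linked gene that checks the labels, stood at 1.77 to 4.42 CPM (counts scaled to a common library size) in Y-KO and at 39.3 to 46.7 CPM in Y-Scr. A mean chi-square statistic per gene over the 7866 genes with a mean of at least 1000 counts was 13.1 between Y-KO replicates 1 and 2, but 186 and 183 between these and Y-KO replicate 3. It was 7.70 between Y-Scr replicates 2 and 3, against 30.8 and 42.7 between these and Y-Scr replicate 1, so 3 independent samples per group may be too many to assume. Of 17837 genes that passed the filter on low counts, 2871 differed by edgeR's quasi-likelihood test at a Benjamini-Hochberg adjusted p under 0.05. This is 16.1% of those tested, with 7.82% higher and 8.27% lower in Y-KO. With each close pair of libraries summed into 1 sample, 496 genes passed, and scaling by library size instead gave a split of 730 higher and 2255 lower, against 1395 and 1476, with a median log2 fold change of -0.17, against -0.03. Omitting Y-KO replicate 1, 2 or 3 gave 1733, 1801 or 6393 calls, and omitting Y-Scr replicate 1, 2 or 3 gave 1735, 1043 or 1037. Ptprc, which encodes CD45, was present at 134 to 298 CPM in Y-KO and at 521 to 601 CPM in Y-Scr, so leukocyte transcripts were not absent from the sorted cells.

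The alpha globin transcripts were almost lost from Y-KO. Hba-a1 had 23, 30 and 14 counts in Y-KO replicates 1, 2 and 3, against 5181, 4044 and 4194 counts in Y-Scr replicates 1, 2 and 3. This was 0.490 ± 0.180 CPM for Y-KO, against 87.9 ± 8.50 CPM for Y-Scr (SD, n = 3 each), a 179.6-fold lower mean. Hba-a2 had 7, 0 and 0 counts in Y-KO, against 930, 752 and 697 counts in Y-Scr. All Y-KO counts of Hba-a2 came from replicate 1, and its mean was 0.0481 ± 0.0834 CPM for Y-KO, against 15.6 ± 2.26 CPM for Y-Scr (SD, n = 3 each). Its mean was 325-fold lower, a ratio that rests on 7 counts with an exact 95% Poisson interval of 2.81 to 14.4. Every Y-KO library was below every Y-Scr library for both genes. In bulk RNA, fewer cells of a type and less RNA per cell cannot be told apart.

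The beta globin transcripts were likewise almost lost. Hbb-bs, the most abundant globin transcript in Y-Scr, had 6, 4 and 12 counts in Y-KO and 8050, 5924 and 6773 counts in Y-Scr. Its mean was 0.162 ± 0.0970 CPM for Y-KO, against 136 ± 10.5 CPM for Y-Scr (SD, n = 3 each), which leaves 0.1196% of the Y-Scr level. The sum of its Y-KO counts, 22, has an exact 95% Poisson interval of 13.8 to 33.3, so that the fold carries a wide counting error. Hbb-bt had 6, 0 and 6 counts in Y-KO and 543, 443 and 487 counts in Y-Scr, a 111-fold lower mean. Here too the groups were far apart, with 1 Y-KO library at 0. Intervals cover counting error only, and since 80.3% to 82.3% of all gene counts from 2 to 20 were even numbers, the 2 reads of a fragment were probably counted singly and the intervals may be too narrow.

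Alas2 was lower in Y-KO by a much smaller factor than the globins. It had 10, 12 and 9 counts in Y-KO and 199, 112 and 176 counts in Y-Scr, or 0.227 ± 0.0378 CPM for Y-KO, against 3.15 ± 0.575 CPM for Y-Scr (SD, n = 3 each), a 13.9-fold lower mean. The part of the Y-Scr level left in Y-KO was 7.22% for Alas2, 0.898% for Hbb-bt, 0.557% for Hba-a1, 0.308% for Hba-a2 and 0.1196% for Hbb-bs. The place of Hba-a2 in this order turns on Y-KO replicate 1, without which it had no count. Alas2 therefore stood at 23.8, 35.3 and 28.1 counts per 100 globin counts in the Y-KO libraries, against 1.35, 1.00 and 1.45 in the Y-Scr libraries. In Y-KO the means of the 5 genes were all low, at 0.0481 to 0.490 CPM, so these factors and ratios depend strongly on the Y-Scr levels. Alas2 also lies within the span of Apex2, and the part of Apex2 reads in its counts was not tested. All 5 genes were lower in every Y-KO library than in any Y-Scr library, as were 20.3% of all tested genes, and the groups did not overlap in either direction in 37.7%. The Y-KO libraries were not ordered alike across the genes: replicate 3 was the lowest for Hba-a1 and the highest for Hbb-bs, and replicate 2 was the highest for Hba-a1 and Alas2 but had no Hbb-bt count.

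**Figure D1:**
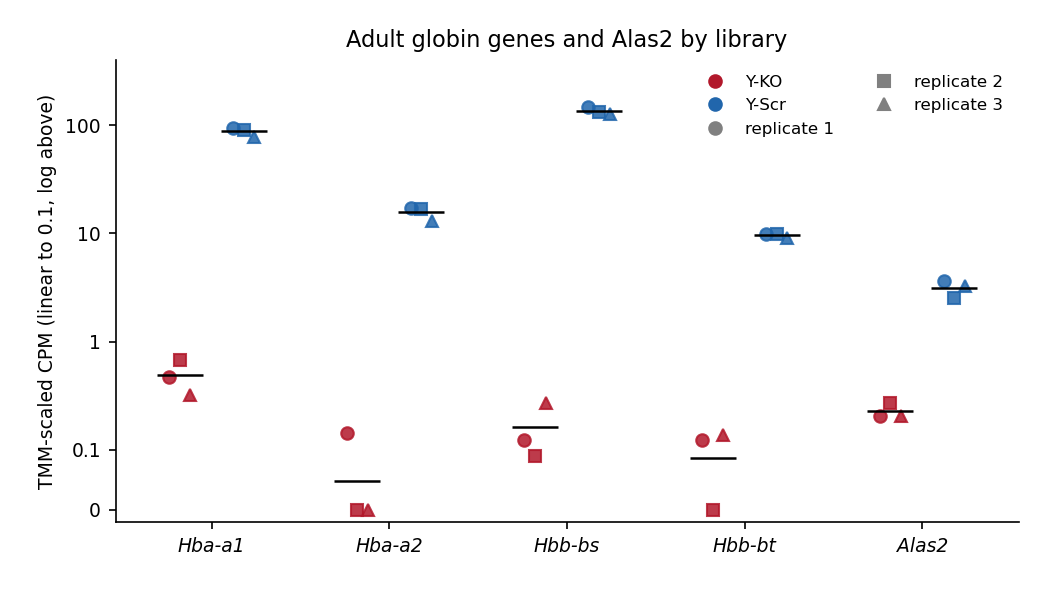
TMM-scaled CPM of each gene in each library on an axis that is linear up to 0.1 and logarithmic above, with Y-KO (red) left of Y-Scr (blue), marker shapes for replicate numbers and black lines for group means (n = 3 each). Every Y-KO point lies under 1 CPM, while the Y-Scr means are 136 CPM for Hbb-bs, 87.9 CPM for Hba-a1 and 3.15 CPM for Alas2.

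Summed over the 4 globins, the level was 0.867, 0.767 and 0.726 CPM in Y-KO and 269, 250.5 and 227 CPM in Y-Scr. The mean, 0.787 ± 0.0721 CPM for Y-KO, against 249 ± 20.8 CPM for Y-Scr (SD, n = 3 each), was 316-fold lower. Within each group the summed level varied little, even though the Y-KO libraries differed widely from each other elsewhere. The globins made up 0.0240% to 0.0278% of all counts in the Y-Scr libraries, and 108 counts in all over the Y-KO libraries.

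Per kilobase of exon, the order of the levels in Y-Scr was Hbb-bs (165 to 192 CPM per kb), Hba-a1 (96.5 to 117), Hba-a2 (19.5 to 25.5), Hbb-bt (12.9 to 14.1) and Alas2 (1.05 to 1.51), and no neighbours in this order overlapped. Hbb-bs ranked 225th and Hba-a1 381st of the 17837 tested genes on this scale in Y-Scr, against ranks of 15430 and 13247 in Y-KO. In Y-KO, Hba-a1 was the highest at 0.391 to 0.834 CPM per kb, above Hbb-bs at 0.118 to 0.355. Below Hba-a1 the ranges of Hbb-bs, Hbb-bt (0 to 0.194), Alas2 (0.0850 to 0.113) and Hba-a2 (0 to 0.217) were not all separated from each other, and only Alas2 lay wholly below Hbb-bs. The exon lengths include stretches shared between the copies, and reads that fit several places were not counted.

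The make-up of the globin counts comes from the same counts that chose the genes and is given as a description, with no test. Alpha transcripts made up 71.4%, 88.2% and 43.8% of globin counts in the 3 Y-KO libraries in order, against 41.6%, 43.0% and 40.3% in the Y-Scr replicates. All Y-KO shares were above all Y-Scr shares, but that of replicate 3, from 32 counts, had an exact Clopper-Pearson 95% interval of 26.4% to 62.3% that spans the Y-Scr values. The mean difference of Y-KO minus Y-Scr was 26.2 percentage points, and 16.0 without Y-KO replicate 2. Over the group the share was 74 of 108 counts, 68.5% (58.9% to 77.1%), in Y-KO and 41.6% (41.1% to 42.1%) in Y-Scr. With counts halved to allow for read pairs, the Y-KO interval was 54.4% to 80.5%. The intervals of replicates 1 and 2 of Y-KO, the close pair of libraries, are the ones that lie wholly above the Y-Scr shares.

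Within the beta pair, Hbb-bt gave 6 of 12, 0 of 4 and 6 of 18 counts in the Y-KO libraries, against 6.32%, 6.96% and 6.71% of beta counts in Y-Scr. The pooled share was 35.3% (exact 95% interval 19.7% to 53.5%, or 14.2% to 61.7% with counts halved) in Y-KO and 6.63% in Y-Scr. The groups overlapped, since Y-KO replicate 2 had no Hbb-bt count. Within the alpha pair, Hba-a1 gave 76.7%, 100% and 100% of counts in Y-KO and 84.8%, 84.3% and 85.7% in Y-Scr. The alpha pair thus showed no difference in its make-up that these counts can resolve. The part played by reads of other copies or by stray reads at such low counts was not tested.

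**Figure D2:**
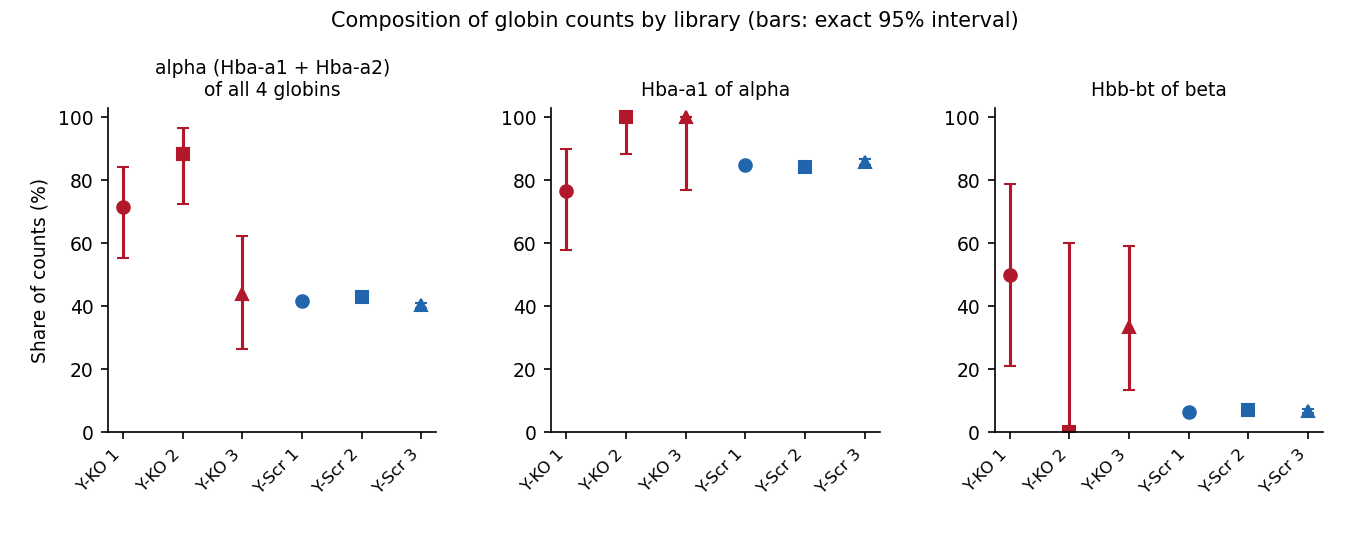
Share of counts in percent with exact 95% intervals in each library, Y-KO (red) left of Y-Scr (blue), for alpha among all globin counts, Hba-a1 among alpha counts and Hbb-bt among beta counts. The alpha share of the Y-KO libraries is 71.4%, 88.2% and 43.8%, against 40.3% to 43.0% in Y-Scr.

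The embryonic globin genes gave no reads, and the other relatives stood at low levels in both groups. The list summed to 0.330 to 0.722 CPM in Y-KO and 0.224 to 0.9503 CPM in Y-Scr, so that in Y-KO it was close to the 0.726 to 0.867 CPM of the 4 adult globins. Hba-x, Hbb-y and Hbb-bh1, the embryonic globins, and Hbb-bh2 and Hbq1a had 0 counts in all 6 libraries, which allows a level of up to 0.0104 CPM each. Hbq1b had 1 count over Y-KO and 2 over Y-Scr. Cygb and Ngb, which encode the cytoglobin and neuroglobin of other tissues, were the 2 listed relatives with enough counts to test, and neither passed edgeR. Ngb had 0, 32 and 18 counts in Y-KO and 18, 8 and 0 in Y-Scr, and Cygb had 12, 0 and 12 counts in Y-KO and 34, 12 and 10 in Y-Scr (log2 fold change 1.14, SE 1.49, edgeR adjusted p = 0.664 for Ngb, and -1.04, SE 1.14, adjusted p = 0.597 for Cygb). Neither had an unadjusted p under 0.05, and DESeq2 called 0 of the list. Ahsp, the alpha chain chaperone, was not analysed here.

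Most of the remaining heme pathway was not low in Y-KO. Of 18 genes of heme synthesis and mitochondrial iron import, all tested, 3 rose, 1 fell and 14 failed the threshold, a share of 22.2% called against 16.1% of all tested genes. Their median log2 fold change was 0.12, against -0.03 over all tested genes. Ppox, the enzyme before the last step, fell to 29.97 ± 2.10 CPM in Y-KO, against 44.9 ± 2.14 CPM in Y-Scr (SD, n = 3; log2 fold change -0.58, SE 0.10, edgeR adjusted p = 0.00620). Glrx5, of iron-sulfur cluster assembly, rose to 75.3 ± 5.55 CPM in Y-KO, against 51.8 ± 2.29 CPM in Y-Scr (log2 fold change 0.54, SE 0.09, edgeR adjusted p = 0.00643). Slc25a39, a mitochondrial carrier, rose by 0.49 on the log2 scale (SE 0.10, edgeR adjusted p = 0.0123), and did not pass without Y-Scr replicate 2 or 3, with adjusted p up to 0.0799. Abcb6, a porphyrin transporter at low level, did not pass (log2 fold change 1.29, SE 0.53, adjusted p = 0.136).

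Alas1, the general counterpart of Alas2, singled out after its values were seen, stood at 51.5, 48.6 and 39.6 CPM in Y-KO and at 50.6, 46.7 and 43.1 CPM in Y-Scr. Its groups overlapped fully (log2 fold change -0.01, SE 0.12, edgeR adjusted p = 0.971). Fech, which inserts iron into the finished ring and was likewise singled out late, had a log2 fold change of -0.13 (SE 0.10, adjusted p by edgeR 0.416). The count of 4 called heme genes was 7 without Y-KO replicate 3, 2 without Y-Scr replicate 2 or 3, and 0 with the close pairs summed.

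Genes of the red cell membrane were mostly near zero or shared with other cells. Of 19 listed, 8 had too few counts to test, and of these Rhag, Kel and Icam4, which encode the Rh-associated glycoprotein, the Kell antigen and the Landsteiner-Wiener antigen, had 0 counts in all 6 libraries. Slc4a1, the band 3 anion exchanger and a major protein of the red cell membrane, had 2, 8 and 0 counts in Y-KO and 10, 0 and 0 in Y-Scr. These transcripts, which mark the red cell lineage alongside hemoglobin, were at or near 0 in Y-Scr as well, where the globins summed to 227 to 269 CPM. The globins made up 0.0240% to 0.0278% of all counts there, and whether rarer red cell transcripts could be detected beside them was not tested.

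Of the 11 membrane genes tested, 2 were higher in Y-KO and 9 did not pass (median log2 fold change -0.26). The share called, 18.2%, was near the 16.1% of all tested genes. The glucose transporter gene Slc2a1 stood at 383 ± 67.4 CPM for Y-KO, against 278 ± 7.20 CPM for Y-Scr (SD, n = 3; log2 fold change 0.47, SE 0.12, edgeR adjusted p = 0.0365). Aqp1, a water channel gene, rose by 0.28 on the log2 scale (SE 0.08, edgeR adjusted p = 0.0382). Both are used by many other cells, and both calls were lost on omitting any library but Y-KO replicate 3, with the close pairs summed and with library size as the scaling. Sptb, Rhd and Gypc did not pass, with log2 fold changes of -0.72, -0.34 and -0.20 and adjusted p from 0.129 to 0.447.

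Several transcription factor genes shared by erythroid and mast cells were lower in Y-KO. Of 20 listed factors and genes of erythropoietin signalling, 18 were tested, 8 were lower and 10 did not pass, so that 44.4% were called, against 16.1% of all tested genes and 8.27% for lower genes. Their median log2 fold change was -0.59. Gata2, a GATA factor of progenitors and mast cells, had 22, 16 and 24 counts in Y-KO and 1327, 1215 and 1241 counts in Y-Scr. Its level was 0.453 ± 0.0919 CPM for Y-KO, against 24.9 ± 2.11 CPM for Y-Scr (SD, n = 3; log2 fold change -5.77, SE 0.20, edgeR adjusted p = 2.66e-06).

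Gata1, the factor that drives red cell maturation, was scarce in both groups. It had 6, 0 and 0 counts in Y-KO and 28, 64 and 61 counts in Y-Scr (log2 fold change -4.51, SE 1.17, edgeR adjusted p = 0.0331). That call was lost on leaving out Y-KO replicate 2 or any Y-Scr library, with adjusted p up to 0.152. Klf1, the erythroid factor that acts on the CACC box, was below the filter, with 6, 34 and 4 counts in Y-KO and 20, 4 and 6 counts in Y-Scr, so its groups overlapped. Zfpm1, the cofactor of GATA factors, stood at 10.2, 12.6 and 10.2 CPM in Y-KO and at 22.5, 20.8 and 22.6 CPM in Y-Scr (log2 fold change -0.998, SE 0.14, edgeR adjusted p = 0.00235).

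Kit, a receptor gene of stem cells, erythroid progenitors and mast cells, fell by 1.64 on the log2 scale (SE 0.17, edgeR adjusted p = 0.000682), and the progenitor factor gene Myb fell by 2.02 (SE 0.32, edgeR adjusted p = 0.00446). Stat5a, which carries cytokine signals including that of erythropoietin, fell by 0.59 (SE 0.11, edgeR adjusted p = 0.0100), and without Y-Scr replicate 2 it did not pass (adjusted p = 0.0661). Tal1 and Stat5b, named after their values were seen, fell by 3.14 and 0.31 (edgeR adjusted p = 0.0431 and 0.0433). The call of Tal1 was lost on leaving out Y-KO replicate 1 or any Y-Scr library, and that of Stat5b on omitting any library but Y-KO replicate 3, with adjusted p up to 0.152 and 0.216. Without Y-KO replicate 3 there were 13 calls, of which 11 were lower and 2 higher. Those 2 were Lmo2 and Lyl1, named after their values were seen, with log2 fold changes of 0.85 and 0.73 over all libraries. There they did not pass (edgeR adjusted p = 0.0884 and 0.139). The 8 calls became 5, 4 and 5 on dropping Y-Scr replicates 1, 2 and 3 in turn, and 3 with the close pairs summed. These 3 were Gata2, Kit and Zfpm1. Gata2 and Kit also mark mast cells, whose markers summed to 58.1 to 126 CPM in Y-KO and 366 to 396 CPM in Y-Scr, and the part of such cells in these levels was not tested.

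Among 23 genes of red cell enzymes and maturation, 16 were tested, 3 were higher, 4 were lower and 9 did not pass. This is 43.8% called, against 16.1% of all tested genes, with a median log2 fold change of 0.03. Car2, a carbonic anhydrase of red cells and many other cells, averaged 3.07 ± 0.659 CPM in Y-KO libraries, against 34.2 ± 2.41 CPM in Y-Scr libraries (SD, n = 3 each). The groups were far apart (log2 fold change -3.48, SE 0.18, edgeR adjusted p = 2.15e-05). Hemgn, the hematopoietic gene for hemogen, had 6, 20 and 2 counts in Y-KO and 182, 241 and 210 counts in Y-Scr (log2 fold change -4.34, SE 0.65, edgeR adjusted p = 0.00344). Car2 and Hemgn were the 2 genes of this list still called with the close pairs summed.

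Bpgm, whose enzyme makes the phosphate that tunes oxygen binding, and the transferrin receptor gene Tfrc, both named after their values were seen, fell by 0.65 and 0.66 on the log2 scale (edgeR adjusted p = 0.0473 and 0.0359). Hebp1, which encodes a heme-binding protein, rose by 1.27 (SE 0.27, edgeR adjusted p = 0.0161), and Isg20 and Prdx2, which encode an exonuclease and a peroxiredoxin, by 0.46 and 0.33 (edgeR adjusted p = 0.00893 and 0.0349). The calls of these 5 genes were lost without Y-Scr replicate 2 or 3, and in part without other libraries, with adjusted p up to 0.179. Car1, Trim58, Tspo2 and Pklr, which red cell precursors express, had 0 counts in all 6 libraries. The 7 calls became 4, 2 and 2 on omitting Y-Scr replicates 1, 2 and 3 in turn, 3 without Y-KO replicate 2, and 2 with the close pairs summed.

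Genes that store iron and break down heme followed no single direction. Of 18 listed, 15 were tested, with 3 higher, 1 lower and 11 short of the threshold (median log2 fold change 0.05). This is 26.7% called, against 16.1% of all tested genes. The heme exporter gene Flvcr1, the aconitase and iron sensor gene Aco1 and the ferritin light chain gene Ftl1 rose by 0.59, 0.30 and 0.50 on the log2 scale (edgeR adjusted p = 0.0216, 0.0422 and 0.0495). Cd163, the macrophage receptor for hemoglobin bound to haptoglobin, stood at 1.38, 2.82 and 3.84 CPM in Y-KO and at 6.14, 8.08 and 8.37 CPM in Y-Scr (log2 fold change -1.49, SE 0.35, edgeR adjusted p = 0.0235). Each of these 4 calls was lost on leaving out Y-KO replicate 2 or any Y-Scr library and with the close pairs summed, and library size as the scaling left 2 lower genes and no higher one in the list.

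Hmox1, which encodes the inducible heme oxygenase, split the Y-KO libraries. It stood at 1232, 1216 and 362 CPM in Y-KO and at 450, 432 and 435 CPM in Y-Scr, so that Y-KO replicate 3 was below all Y-Scr libraries and the others far above. It did not pass edgeR (log2 fold change 1.09, SE 0.38, adjusted p = 0.0851), but on omission of Y-KO replicate 3, with just the close pair left on that side, it passed (adjusted p = 1.00e-11), as it did with no filter on low counts. The count of 4 in the list was 8 without Y-KO replicate 3, 1 without Y-KO replicate 1 and 0 without any other single library.

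**Figure D3:**
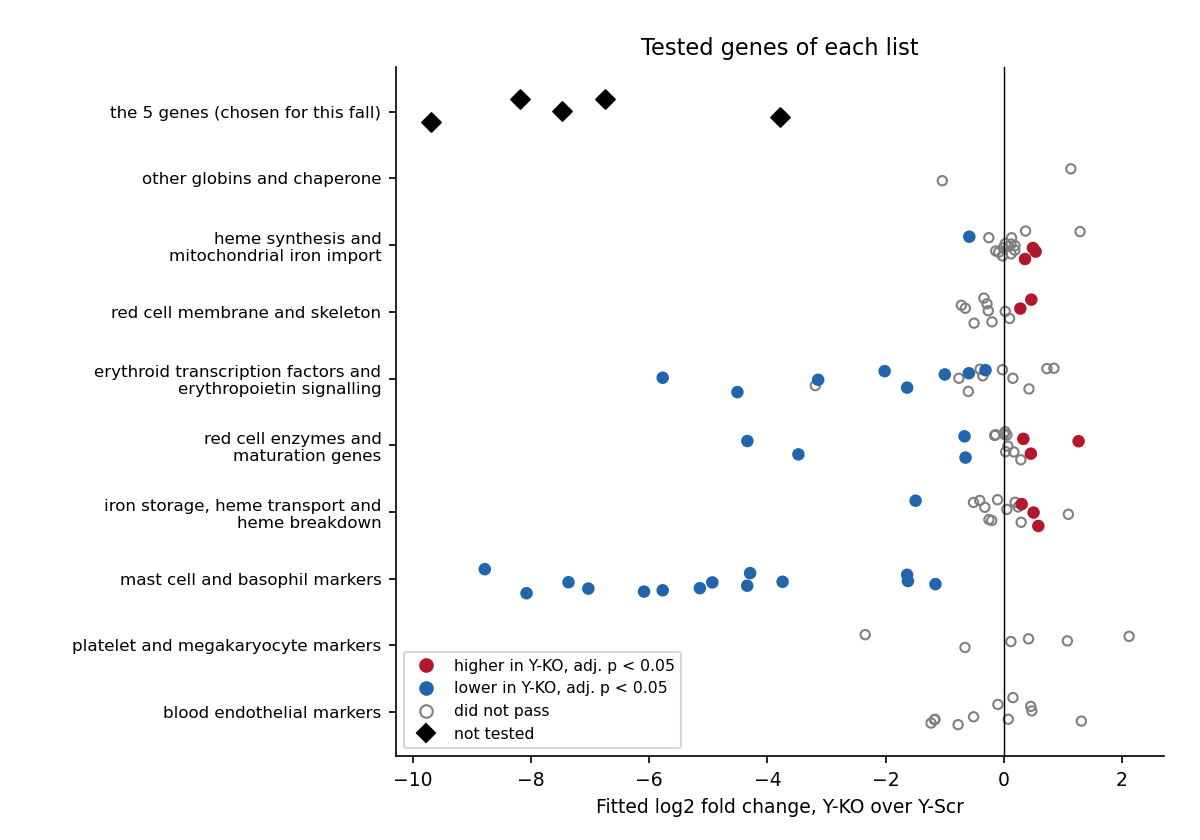
Fitted log2 fold change of Y-KO over Y-Scr for the tested genes of each list, with calls lower in Y-KO in blue, calls higher in red and genes that did not pass as open circles; black diamonds are the 5 genes, which were chosen for their fall and are not tested. Heme synthesis genes lie around 0 (median 0.12). Calls lower in Y-KO are 8 of 18 transcription factor and signalling genes and 14 of 14 mast cell and basophil markers. Among all tested genes this share is 8.27%.

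Genes near the globins and Alas2 were mostly not called. Within 100 kb of the 5 genes lay 34 other genes, of which 12 were tested, 1 was higher, 11 did not pass and the median log2 fold change was 0.08 (8.33% called, against 16.1% of all tested genes). Nprl3, whose introns hold the main alpha globin enhancers in mammals, lies 15.8 kb upstream of Hba-a1 and stood at 31.4 ± 1.48 CPM for Y-KO, against 27.1 ± 3.16 CPM for Y-Scr (SD, n = 3; log2 fold change 0.22, SE 0.12, edgeR adjusted p = 0.258). On the same side, the DNA repair gene Mpg, Rhbdf1 and Snrnp25 did not pass either, with log2 fold changes of -0.06, 0.02 and 0.14. Sh3pxd2b, 50.5 kb downstream of Hba-a2, rose by 0.38 (SE 0.09, edgeR adjusted p = 0.0192) and ceased to pass on leaving out Y-KO replicate 1 or any Y-Scr library, with the close pairs summed and with library size as the scaling. Il9r, a cytokine receptor gene near the alpha globins picked after its values were seen, had the lowest fold change of these neighbours but did not pass (log2 fold change -2.66, SE 0.94, edgeR adjusted p = 0.0931). With no filter, with DESeq2, or without Y-KO replicate 1 or 3, 1 neighbour was called lower.

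Around Alas2, the overlapping DNA repair gene Apex2 stood at 11.3 ± 2.75 CPM for Y-KO, against 12.1 ± 1.09 CPM for Y-Scr (SD, n = 3; log2 fold change -0.10, SE 0.19, edgeR adjusted p = 0.766). Pfkfb1 and Tmem29 differed by 0.34 and -0.01 and did not pass (edgeR adjusted p = 0.514 and 0.989). Of the beta globin neighbours, a pseudogene of Dnajc19 was the 1 gene with enough counts to test, and it did not pass (log2 fold change 0.60, SE 0.61, edgeR adjusted p = 0.567).

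**Figure D4:**
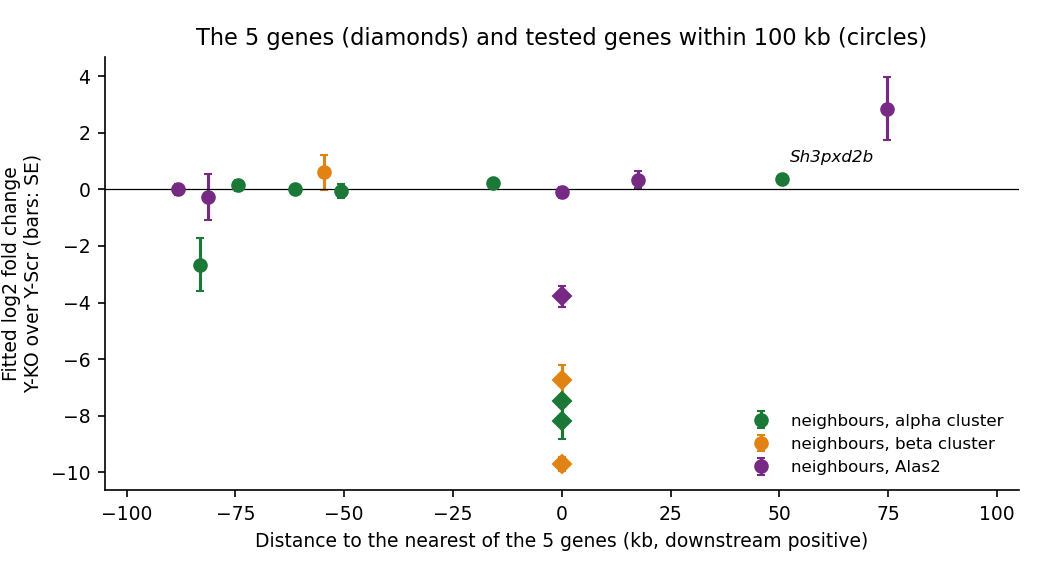
Fitted log2 fold change of Y-KO over Y-Scr (bars: SE) against distance in kb from the nearest of the 5 genes, downstream positive, with diamonds for the 5 genes and circles for tested genes within 100 kb, coloured by locus. The 5 genes lie between -3.78 and -9.70, and of the circles Sh3pxd2b, at 0.38, is the one that passed.

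Markers of other cell types differed in direction. All 14 mast cell and basophil markers were lower in Y-KO (median log2 fold change -5.04), against 8.27% of all tested genes. The list was chosen with earlier results of these data known, and Gata2 and Kit also stand in that of transcription factors. The summed level of the 14 markers was 58.1 to 126 CPM in Y-KO and 366 to 396 CPM in Y-Scr, and no marker was at 0 in all libraries. The mast cell protease gene Mcpt1, a defining marker, had 6, 0 and 1 counts in Y-KO and 1424, 1006 and 1186 in Y-Scr. By contrast Mcpt8, a basophil protease gene, stood at 28.8, 20.3 and 19.2 CPM in Y-KO and at 53.3, 47.6 and 51.3 CPM in Y-Scr. Dropping Y-Scr replicate 1, 2 or 3 gave 10, 11 or 10 calls, and the histidine decarboxylase gene Hdc was among the calls lost in each of these cases. The part of mast cells or basophils in the levels of the globins and Alas2 was not tested.

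Of 13 pan-leukocyte markers 6 were lower and 7 did not pass, against 8.27% lower among all tested genes, with a summed level of 1470.4 to 3092 CPM in Y-KO and 3846 to 4014 CPM in Y-Scr. Y-KO replicate 3 was the lowest of the Y-KO libraries here, with 1470.4 CPM where replicates 1 and 2 had 3056 and 3092 CPM, whereas its summed globin level was 0.726 CPM against 0.867 and 0.767 CPM. Omitting any Y-Scr library gave 2 calls, and summing the close pairs gave 1. Omitting Y-KO replicate 3 gave 11, of which 9 were lower and 2 higher. Blood endothelial markers summed to 59.3 to 60.2 CPM in Y-KO and 86.8 to 93.4 CPM in Y-Scr, and 0 of the 11 tested passed edgeR. At an unadjusted p under 0.05 there were 4, and DESeq2 called 1. Without Y-KO replicate 3, 3 passed. Platelet and megakaryocyte markers, which share a progenitor with red cells, summed to 45.7 to 84.4 CPM in Y-KO and 53.8 to 62.6 CPM in Y-Scr, so the groups overlapped.

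Of the platelet markers 0 of 6 tested passed edgeR, 0 had an unadjusted p under 0.05, DESeq2 called 1, and Gp1bb was at 0 in all libraries. The chemokine genes Pf4 and Ppbp made up most of that sum, with log2 fold changes of 0.42 and 1.08 (edgeR adjusted p = 0.249 and 0.183). Itga2b, an integrin gene of platelets, went the other way (log2 fold change -0.66, edgeR adjusted p = 0.186). Without Y-KO replicate 3, 5 platelet markers passed, 2 higher and 3 lower. Macrophage markers, whose cells clear red cells, were higher in 6 and lower in 1 (Cd163) of 11 tested, against 7.82% higher and 8.27% lower among all tested genes, with a summed level of 1126 to 2174 CPM in Y-KO and 1181 to 1306 CPM in Y-Scr. Y-KO replicate 3 was the low end of this range. The macrophage count of 7 was 4 on leaving out Y-KO replicate 2 or any Y-Scr library, 11 without Y-KO replicate 3 and 1 with the close pairs summed. The part of these cells in the levels of the globins and Alas2 was not tested.

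**Figure D5:**
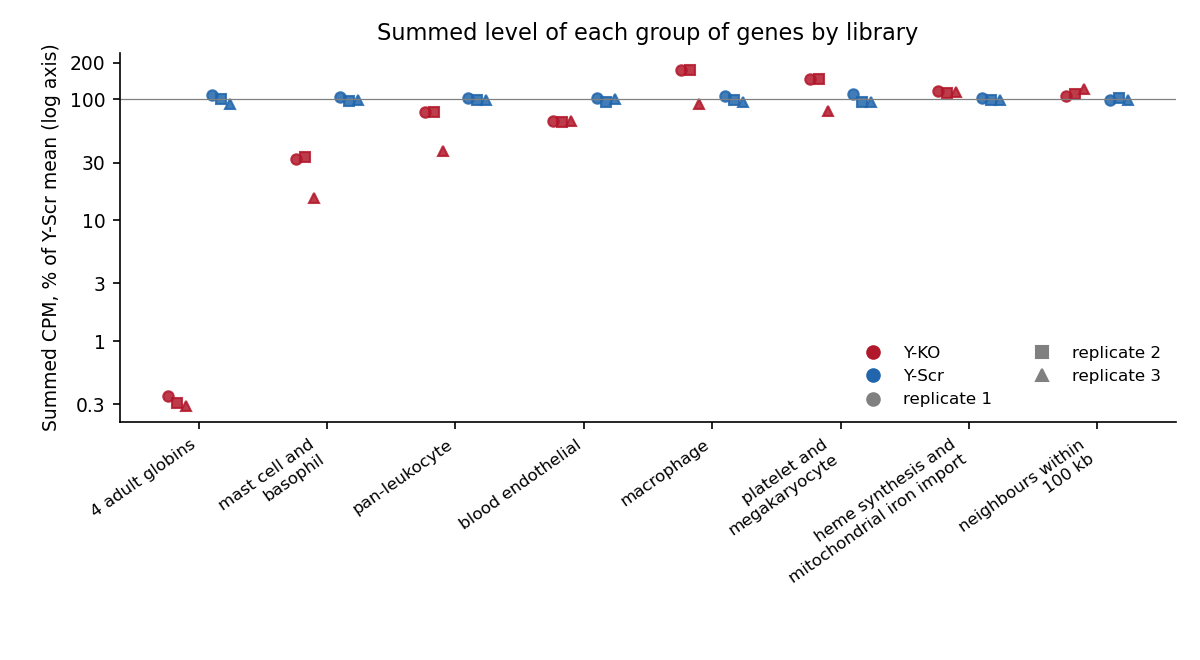
Summed CPM of each group of genes in each library as a percentage of the Y-Scr mean on a log axis, Y-KO (red) left of Y-Scr (blue), with marker shapes for replicate numbers. The 4 adult globins lie at 0.316% on average in Y-KO, far below the summed mast cell and basophil markers. By Y-Scr means, Hdc alone makes up 215 of the 379 CPM of that sum, with a log2 fold change of -1.62. The median over the 14 markers is -5.04, and Mcpt1, with -8.78, falls inside the globin range of -9.70 to -6.74. Pan-leukocyte and macrophage markers set Y-KO replicate 3 apart from replicates 1 and 2.

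The genes whose profile over the 6 libraries was most like that of the summed globins were Mcpt1, the granzyme genes Gzmd, Gzmc and Gzmg, and Mcpt2, another mast cell protease gene. Likeness was measured as the root-mean-square distance between log2(CPM + 0.1) values, each centred on its own mean, over 17352 named genes that passed the filter. The distances were 0.47 for Mcpt1, 0.74 for Gzmd, 0.84 for Gzmc, 1.06 for Gzmg and 1.19 for Mcpt2. Mcpt1 stood at 0.124, 0 and 0.0227 CPM in Y-KO and at 26.0, 22.6 and 22.2 CPM in Y-Scr. Gzmd stood at 0.784, 0.654 and 0.522 CPM in Y-KO and at 82.2, 74.2 and 70.1 CPM in Y-Scr. Those 5 genes lie on chromosome 14, apart from the globin clusters and Alas2. With a pseudocount of 1 CPM, 4 of the 5 stayed among the 5 nearest. This is a description, since any gene with a large and even fall would come close.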

How the data were processed

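Bulk poly-A RNA-seq of sorted CD45-negative tumour cells was deposited as 1 table of whole-number counts per gene, made by the authors with featureCounts 1.5.3 on the Ensembl 112 annotation (GRCm39), per the file header, which records no option for strand, read pairs or multi-mapped reads. FastQC 0.12.1, MultiQC 1.13, Trimmomatic 0.39 and STAR 2.5.2b are named in the submitters' processing notes. The library kit marks strand but the counting did not use it, so reads of overlapping genes on either strand cannot be assigned to one. Gene symbols came from a GRCm38 name table and matched 90.7% of 57186 gene IDs.

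The test across genes was edgeR 4.0.16's, run in R 4.3.3 (filterByExpr with a minimum count of 10, TMM scaling, group alone, quasi-likelihood test, Benjamini-Hochberg adjustment over all 17837 tested genes, threshold 0.05). It was also run on simulated counts of independent libraries, which cannot speak to close pairs of libraries such as those seen here. DESeq2 1.42.0, a replicate block, other scalings and filters and leaving out each library were alternatives. Summing the close pairs of libraries and halving counts were added after seeing the data. CPM values are TMM-scaled, and ± gives the SD. Shares have exact Clopper-Pearson intervals from SciPy 1.17.1. A count of 0 was bounded by 3 counts. The 5 genes and the 11 lists (168 symbols, 167 matched) were chosen with earlier results of these data known. Named genes were up to 5 per pathway list by smallest p, up to 3 per marker list by level, defining red cell genes, neighbours with a mean of at least 1 CPM, and the 5 genes most like the summed globins; any other named gene was chosen after its values were seen. Some listed genes are counted but not reported here by name. Libraries held 42040955 to 52951031 counts.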

Additional observations from a re-analysis of the deposited data

How the results depend on the processing

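The log2 fold changes of the 5 genes stayed negative under the alternatives compared for them (other scalings, the block, the ratio of means, the close pairs summed and leaving out each library). Values of these genes from DESeq2 and other filters are not given here. Leaving out 1 library gave -3.92 to -3.64 for Alas2, -7.78 to -7.26 for Hba-a1, -12.56 to -7.65 for Hba-a2, -10.26 to -9.42 for Hbb-bs and -7.17 to -6.19 for Hbb-bt; the value of -12.56, without Y-KO replicate 1, sets Hba-a2 against 2 libraries at 0 and is no bound. The alpha share difference ran from 16.0 to 38.2 percentage points.

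Counts of called genes moved more. Leaving out 1 library gave 1037 to 6393 calls over all genes (the highest without Y-KO replicate 3), 2 to 7 for heme synthesis, 0 to 2 for the red cell membrane, 4 to 13 for transcription factors, 2 to 8 for red cell enzymes, 0 to 8 for iron storage, 0 to 5 for platelet, 10 to 14 for mast cell, 2 to 11 for leukocyte, 4 to 11 for macrophage and 0 to 3 for endothelial markers, and 0 to 2 for neighbours. The cause was not tested. With the close pairs summed there were 496 calls, of which heme synthesis, membrane, iron storage and neighbours held 0, transcription factors 3, enzymes 2, and leukocyte and macrophage markers 1 each; that fit has fewer samples.

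Libraries with the same replicate number did not deviate together (correlations -0.00860, -0.00590 and -0.0164), so the numbers give no pairing. With the number as a block there were 2066 calls, and 0 for the membrane, 5 for transcription factors, 4 for enzymes and 2 for endothelial markers. Library size alone gave 0 for the membrane, 2 for iron storage and 0 for neighbours. Without a filter there were 1 membrane, 3 platelet, 10 leukocyte, 3 endothelial and 2 neighbour calls. DESeq2 gave 3603 calls, with 1 platelet, 1 endothelial and 2 neighbour calls. No single gene named here reversed, but the split of calls did: neighbours had 1 higher, against 0 higher and 1 lower without Y-KO replicate 1, and iron storage had 3 higher and 1 lower, against 0 higher and 2 lower with library size alone. Counts of 0 to 30 per globin in Y-KO limit what the make-up of its globins can show.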
